A study of Homo sapiens with 12 samples.

Results

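The ZNF genes examined here are the human zinc finger genes whose symbol is ZNF followed by a number and which were detected on every array of DMSO-treated cells. A probe was a member when its gene carried such a symbol and was not annotated as a pseudogene or antisense gene, and when its detection p-value was under 0.01 on all 6 DMSO arrays. Of 686 ZNF probes on the array, which stood for 471 genes, 238 probes for 204 genes met this rule. These 238 probes were part of the 13735 probes that named 1 gene and were detected on at least 3 arrays, and part of the 11015 probes that were detected on all 6 DMSO arrays. Members were thus chosen by their measured detection on the DMSO arrays, so the DMSO levels of the members are a description, and counts of members that changed against DMSO are read only beside all other probes chosen in the same way.

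C2H2 zinc finger proteins bind DNA through tandem fingers, each of which contacts a few bases, and they form the largest family of transcription factors in the human genome. Many of them carry a KRAB box, which recruits the co-repressor TRIM28 (KAP1) and through it the histone methyltransferase SETDB1, and they are known above all for silencing transposable elements. Their genes lie to a large part in tandem clusters on chromosome 19, and the family also holds members with other tasks, such as the spindle protein ZNF207 and the promoter-binding activator ZNF143.

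The cells were HCT116, a human colon cancer line, either wild-type for the stress-induced transcription factor ATF3 (ATF3-WT) or carrying a deletion in exon 3 of ATF3 on both alleles, made by rAAV targeting (ATF3-KO). The knockout is the single clone E11. Cells of each genotype received DMSO or 1.5 µM camptothecin (CPT), a topoisomerase I inhibitor that damages DNA, for 4 h, with 3 Illumina HumanHT-12 v4 arrays in each of the 4 groups. The comparisons ask how the damage response of these genes looks and whether it differs without ATF3. Nothing states that replicates were separate cultures, so p-values measure the spread between these arrays, and differences between genotypes are differences between 1 clone and its parent line. RNA came from whole cultures, in which fewer cells of a type and less RNA per cell cannot be told apart.

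The raw ATF3 signal was 168, 156.8 and 390.4 in ATF3-WT with DMSO and 1123.3, 992.8 and 1713.8 with CPT. In ATF3-KO it was 127.1, 117 and 130.9 with DMSO and 289.8, 254 and 282.1 with CPT, so every ATF3-KO array lay below every ATF3-WT array of the same treatment (5.24-fold under CPT, limma adjusted p = 0.0355). The position of the ATF3 probe relative to the deletion was not checked. Between 13713 and 16823 probes were detected per array. Of 11 colon epithelial markers, 6 were detected on all 12 arrays (EPCAM, CDH1, KRT8, KRT18, KRT19 and CDX2) and 5 on none (KRT20, VIL1, CDX1, CEACAM5 and LGALS4), and of the markers of other tissues all 3 endothelial genes, 2 of 3 blood genes and 2 of 5 mesenchymal genes were on none. The mesenchymal gene ACTA2 was detected on all 12 arrays, and both liver genes on some.

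At the edge of the rule, the members with the highest DMSO detection p-value were ZNF248, ZNF707 and ZNF383, each at 0.00909, and the nearest ZNF probes outside it were ZNF160 at 0.0104, ZNF177 at 0.0117 and ZNF525 at 0.013. A further 342 ZNF probes were detected on none of the 6 DMSO arrays. Under CPT, 184 of the 238 members were still detected on all 3 arrays of ATF3-WT and 17 on none, while in ATF3-KO 191 were detected on all 3 and 11 on none. In all, 180 members were detected on all 12 arrays. The median member level on the normalised log2 scale was between 6.01 and 6.28 on the DMSO arrays, between 6.22 and 6.35 on the ATF3-WT CPT arrays, and between 6.42 and 6.45 on the ATF3-KO CPT arrays. On this scale the 3 ATF3-KO CPT arrays had the highest member medians of the 12. The median over all probes stayed between 6.63 and 6.68, which quantile normalisation holds nearly fixed. In raw signal the order differed, with member medians of 165, 153 and 145 on the ATF3-KO CPT arrays. They were 152, 147 and 138 on the ATF3-WT CPT arrays and between 154 and 173 on the DMSO arrays.

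CPT moved ZNF members in both directions. In ATF3-WT, 40 members (36 genes) rose and 42 (35 genes) fell past an adjusted p of 0.05 in limma, which was 16.8% and 17.6% of the members. Among the probes detected on all 6 DMSO arrays the shares were 12.7% and 20.8%, and among all probes tested 12.3% and 17.9%. The members' median change was 0.14 on the log2 scale (0.28, 0.15 and -0.05 in replicates 1, 2 and 3), beside 0.03 over all probes. With the replicate number as a block, 75 members rose and 52 fell, beside 23.8% and 28.5% of the DMSO-detected probes. Without WT CPT replicate 2, the main count of 82 members dropped to 54, and without WT DMSO replicate 1 the median was 0.03.

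In ATF3-KO, 60 members (53 genes) rose with CPT and 34 (30 genes) fell, which was 25.2% and 14.3%. The shares among DMSO-detected probes were 13.6% and 20.2%, and among all probes 13.1% and 17.2%. The median change of the members was 0.26 (0.29, 0.21 and 0.17 in the 3 replicates), beside 0.03 over all probes, and it was 0.14 without KO DMSO replicate 1. With the replicate block 88 members rose and 44 fell, beside 24.2% and 27.4% of the DMSO-detected probes. The direction of the median depended on the scaling of the arrays. When each array was centred on the median of all its probes in place of quantile normalisation, 10 members rose and 65 fell in ATF3-WT and 21 rose and 49 fell in ATF3-KO, with medians of -0.26 and -0.05 where all probes had -0.30 and -0.19. The members' shares were then 4.2% higher and 27.3% lower in ATF3-WT and 8.82% and 20.6% in ATF3-KO, beside 1.94% and 33.4%, and 3.22% and 26.8%, of the DMSO-detected probes. Centred on the probes detected on all 12 arrays, 58 rose and 25 fell in ATF3-WT and 65 rose and 31 fell in ATF3-KO. In ATF3-WT the 24.4% of members that rose were then close to the 22.5% of DMSO-detected probes and the 25% of all probes, and 10.5% fell, beside 17.1% and 13.7%. In ATF3-KO the members' shares were 27.3% higher and 13% lower, beside 19.4% and 17.6% of the DMSO-detected probes. Under all 3 scalings the members' median lay above that of all probes in both genotypes.

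Many of the members called in 1 genotype were called in the other. Of the 40 risers in ATF3-WT and the 60 in ATF3-KO, 36 were shared, and of the 42 and 34 that fell, 31 were shared. The shared risers were 90% of those in ATF3-WT and 60% of those in ATF3-KO, beside 74.2% and 69.7% over all probes. The shared members that fell were 73.8% and 91.2%, beside 78.9% and 82%. Of the 238 members, 0 were called in opposite directions, and 217 (91.2%) had the same sign, against 87.5% of all probes. Across members the 2 changes had a Pearson correlation of 0.942, against 0.926 across all probes. These are correlations across probes, which are not independent replicates.

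**Figure D1:**
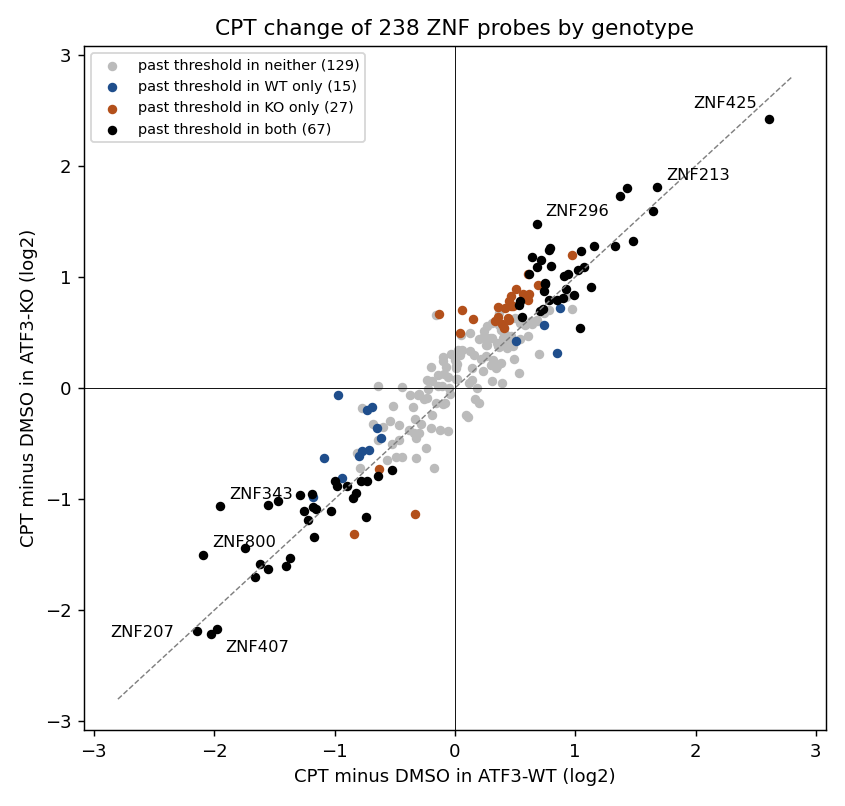
Change with CPT of each of the 238 ZNF probes in ATF3-WT (horizontal axis, log2) and in ATF3-KO (vertical axis, log2), with the dashed line at equality and colours for the genotype in which the adjusted p was under 0.05. The 67 probes past the threshold in both genotypes lie in the upper right and lower left quadrants, from ZNF425 at the top to ZNF207 and ZNF407 at the bottom.

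ZNF425 rose the most of all members. Its normalised log2 level was 4.95, 5.41 and 5.26 in ATF3-WT with DMSO and 7.17, 7.78 and 8.52 with CPT, and 5.16, 5.18 and 5.25 in ATF3-KO with DMSO and 6.84, 7.57 and 8.45 with CPT. All CPT arrays lay above all DMSO arrays. The rise was 6.11-fold in ATF3-WT (log2 2.61 ± 0.37 SE, limma adjusted p = 0.000344) and 5.37-fold in ATF3-KO (2.42 ± 0.37, adjusted p = 0.000552).

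ZNF213, a protein with a SCAN domain and a KRAB box, was next in both genotypes. Its level went from 6.25, 6.18 and 6.43 to 7.84, 8.2 and 7.86 in ATF3-WT and from 6.15, 6.43 and 6.23 to 7.74, 8.27 and 8.22 in ATF3-KO, with no overlap between treatments. That was 3.21-fold and 3.5-fold (limma adjusted p = 7.2e-05 and 3.87e-05). ZNF84, a KRAB zinc finger protein, went from 4.8, 5.36 and 5.33 to 6.66, 6.75 and 7.03 in ATF3-WT and from 5.33, 5.05 and 5.87 to 6.76, 6.92 and 7.35 in ATF3-KO. ZNF23, another KRAB protein, went from 5.93, 6.06 and 6.79 to 7.45, 7.56 and 8.06 in ATF3-WT and from 6.17, 5.88 and 6.63 to 7.74, 7.98 and 8.33 in ATF3-KO. Both rose without overlap in each genotype, ZNF84 by 3.14-fold and 3.01-fold and ZNF23 by 2.69-fold and 3.47-fold.

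ZNF302 rose 2.79-fold in ATF3-WT and 2.5-fold in ATF3-KO, ZNF2 rose 2.59-fold and 3.32-fold, and ZNF416 rose 2.24-fold and 2.44-fold. ZNF329 rose 2.52-fold in ATF3-WT and 2.43-fold in ATF3-KO. ZNF296 rose 2.79-fold in ATF3-KO (limma adjusted p = 0.000356) and 1.6-fold in ATF3-WT (adjusted p = 0.0292), and the call in ATF3-WT was lost when DMSO replicate 1 or 3 or any 1 of the CPT replicates of that genotype was left out.

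ZNF207 (BuGZ), which binds BUB3 and spindle microtubules and helps chromosomes align in mitosis, had the largest fitted fall in ATF3-WT. Members that no CPT array of ATF3-WT detected, such as ZNF407, ZNF215 and ZNF343, cannot be ranked against it. Its first probe went from 9.9, 9.86 and 9.7 to 7.64, 7.34 and 8.05 in ATF3-WT and from 10.03, 10.03 and 9.81 to 8.18, 7.6 and 7.52 in ATF3-KO. The fall was 4.42-fold and 4.57-fold (limma adjusted p = 3.86e-05 and 3.02e-05). Its second probe also fell without overlap, by 2.58-fold and 2.89-fold, so the direction was the same in both probes and the size was not.

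ZNF407, whose gene spans 468 kb and is the longest of the members, was detected on all 6 DMSO arrays and on no CPT array. Its level was 6.04, 6.54 and 6.76 in ATF3-WT with DMSO and 6.26, 6.77 and 6.72 in ATF3-KO with DMSO, and between 4.23 and 4.53 on all CPT arrays. Where no array of a group detected a probe, the fold is given as a bound, computed against the lowest level among the detected probes of each array or the probe's own level, whichever was higher. ZNF407 was at least 2.64-fold lower with CPT in ATF3-WT and at least 2.93-fold lower in ATF3-KO (limma adjusted p = 4.66e-05 and 2.31e-05). ZNF215, a SCAN and KRAB protein of the imprinted region on chromosome 11, behaved alike, with levels from 6.42 to 7 on DMSO arrays, no detection on any CPT array, and falls of at least 2.73-fold and 3.29-fold (adjusted p = 1.85e-05 and 9.33e-06).

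ZNF343 went from 6.3, 6.68 and 6.51 to 4.59, 4.53 and 4.52 in ATF3-WT, where no CPT array detected it, and from 6.05, 6.25 and 6.36 to 5.18, 5.03 and 5.26 in ATF3-KO, where 2 of 3 did. The fall was at least 2.74-fold in ATF3-WT and 2.09-fold in ATF3-KO (limma adjusted p = 1.05e-05 and 0.000457). ZNF800, a repressor of enteroendocrine differentiation in the human gut, went from 7.53, 8.24 and 8.63 to 5.98, 5.99 and 6.18 in ATF3-WT and from 7.51, 7.88 and 8.04 to 6.63, 6.11 and 6.18 in ATF3-KO. It fell 4.25-fold and 2.83-fold without overlap (adjusted p = 0.000145 and 0.0011).

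Further falls came from ZNF544 (3.35-fold in ATF3-WT and 2.71-fold in ATF3-KO), ZNF518A (3.07-fold and 2.98-fold) and ZNF706 (2.93-fold and 2.07-fold). The ZNF706 call in ATF3-KO was lost without KO DMSO replicate 2 or KO CPT replicate 2 (limma adjusted p = 0.0511 and 0.0594). That call was also lost with replicates 2 and 3 alone (0.0827). ZNF586 fell 2.93-fold and 3.09-fold on its first probe, which only 1 of 3 CPT arrays detected in each genotype. No CPT array detected its second probe, which fell by at least 1.33-fold in ATF3-WT and 1.22-fold in ATF3-KO. The calls of the second probe were lost when centred on the probes detected on all 12 arrays (limma adjusted p = 0.0647 and 0.0947). ZNF827, which recruits the NuRD complex to telomeres in cells that lengthen them without telomerase, was detected on no CPT array of either genotype. It fell by at least 2.23-fold in ATF3-WT and 2.08-fold in ATF3-KO (limma adjusted p = 0.0185 and 0.0092). The ZNF827 call in ATF3-WT was lost without WT CPT replicate 1 or WT DMSO replicate 2 or 3 (adjusted p from 0.0544 to 0.0785). That call was also lost without the detection filter (0.0594) and when centred on the probes detected on every array (0.06). ZNF148 (ZBP-89), which binds GC-rich promoters, fell 3.17-fold and 3.25-fold (limma adjusted p = 0.0217 and 0.0193), with replicates as far apart as 6.4, 7.73 and 8.39 in ATF3-WT with DMSO. The ZNF148 call in ATF3-WT was lost without CPT replicate 1 or 2 or DMSO replicate 2 or 3 of that genotype, and in ATF3-KO without CPT replicate 1 or 3 or DMSO replicate 2 or 3.

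**Figure D2:**
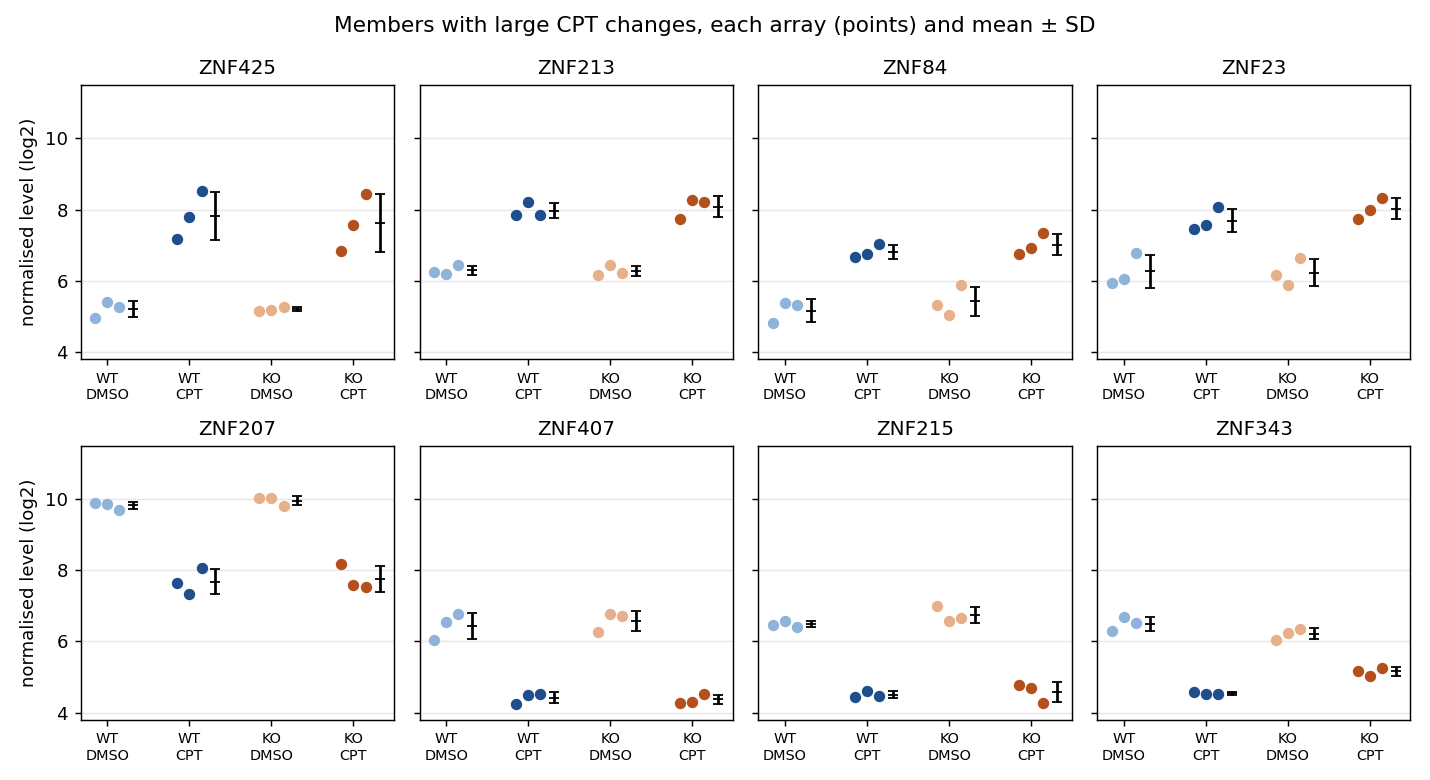
Normalised level (log2) of 8 ZNF members on each of the 12 arrays, with points for the 3 arrays of each group, left to right replicates 1 to 3, and the mean ± SD in black. The upper row shows 4 members whose CPT arrays lie above their DMSO arrays in both genotypes, and the lower row 4 whose CPT arrays lie below, with ZNF343 under CPT between 4.52 and 4.59 in WT and between 5.03 and 5.26 in KO.

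Where 1 gene had several member probes, these mostly gave similar changes. There were 29 such genes with 63 probes, and the median gap between their probes was 0.21 log2 units in ATF3-WT and 0.16 in ATF3-KO. The gap was over 0.5 in at least 1 genotype for 8 of the 29 (ZNF207, ZNF280D, ZNF322, ZNF33B, ZNF586, ZNF695, ZNF777 and ZNF830). ZNF695 was the only gene whose probes were called in opposite directions, and the rise of its first probe was a weak call. One of its probes went from 5.08, 5.33 and 5.16 to 5.56, 5.77 and 5.95 with CPT in ATF3-KO (1.49-fold up, limma adjusted p = 0.0218), and the other went from 5.35, 5.41 and 5.27 to a level at which no CPT array detected it (at least 1.24-fold down, adjusted p = 0.00112). The call of the first probe was lost without KO DMSO replicate 1 or 3 or KO CPT replicate 2 or 3 (adjusted p from 0.0577 to 0.0795), without background correction (0.0596) and when centred on the median of all probes (0.228). ZNF280D had 3 probes with changes of -1.03, -0.30 and -0.24 in ATF3-WT, of which only the first passed the test. The probe sequences were not used here, so which transcripts each probe reads, and whether it also reads a near-identical ZNF gene, was not tested.

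The change with CPT went with the length of the gene. Genomic spans ran from 0.966 to 468 kb, with a median of 22.8 kb for members and 28.2 kb for other DMSO-detected probes. Among the 37 members of genes under 10 kb, 16 rose and 4 fell in ATF3-WT, with a median change of 0.54. That was 43.2% and 10.8% of the class, beside 24.2% and 5.44% of the other DMSO-detected probes of such genes. Centred on the median of all probes, 3 rose (8.11%) and 4 fell (10.8%), beside 4.59% and 9.46% of those other probes. The median was 0.35 in the 64 members of 10 to 20 kb and 0.22 in the 69 members of 20 to 40 kb. Among the 68 members over 40 kb, 1 rose and 24 fell, and the median was -0.35. The 35.3% that fell were close to the 36.9% of other DMSO-detected probes over 40 kb. In ATF3-KO the medians of the 4 classes were 0.64, 0.43, 0.30 and -0.44, and in the longest class 3 members rose and 21 fell (30.9%, beside 36.4% of the other probes).

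In the 3 shorter classes the member medians lay above those of other genes of similar span. The medians of other DMSO-detected probes in ATF3-WT were 0.31, 0.18, -0.04 and -0.40 from the shortest to the longest class. Spearman's rho between span and change was -0.422 over the members and -0.452 over the other probes in ATF3-WT, and -0.440 and -0.456 in ATF3-KO, so the relation was about as strong outside the family. These are descriptions over probes, with no p-value. Centred on the median of all probes, the 4 member medians in ATF3-WT were 0.16, -0.09, -0.17 and -0.75, so the signs of the middle classes changed with the scaling and the order did not.

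**Figure D3:**
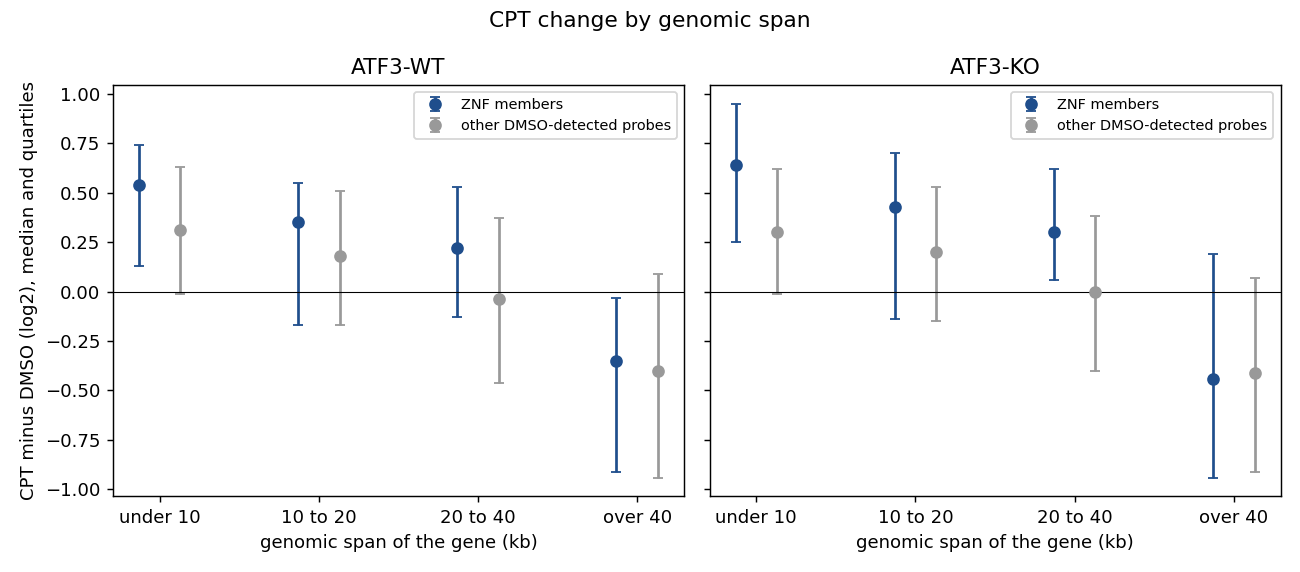
Median change with CPT (log2, vertical axis) by genomic span of the gene (horizontal axis, 4 classes in kb) in ATF3-WT (left) and ATF3-KO (right), with bars from the lower to the upper quartile over probes. ZNF members (blue) go from 0.54 to -0.35 in WT and from 0.64 to -0.44 in KO across the classes, and other DMSO-detected probes (grey) go down in the same order.

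Of the members, 82 probes (77 genes) lay on chromosome 19. Their median change was 0.33 in ATF3-WT, where 17 rose and 8 fell, and 0.43 in ATF3-KO, where 24 rose and 8 fell. The shares were 20.7% higher and 9.76% lower in ATF3-WT and 29.3% and 9.76% in ATF3-KO, beside 23.3% and 4.85%, and 23.1% and 5.49%, of other chromosome 19 probes detected on all 6 DMSO arrays. The 156 probes on other chromosomes had medians of 0.02 and 0.11. Those other chromosome 19 probes had medians of 0.30 in ATF3-WT and 0.27 in ATF3-KO. Centred on the median of all probes, the chromosome 19 members had medians of -0.09 in ATF3-WT and 0.06 in ATF3-KO, where the other chromosome 19 probes had -0.03 and 0.06. In ATF3-WT there were then 3 rises (3.66%) and 13 falls (15.9%), beside 3.23% and 12.4% of those other probes. In ATF3-KO there were 10 rises (12.2%) and 9 falls (11%), beside 4.52% and 8.08%.

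Neighbouring ZNF genes did not all move together. In the RefSeq gene order (GRCh38.p14), 26 runs of at least 4 ZNF genes in a row held a member, and 16 of these held at least 3 member genes. In the run from ZNF627 to ZNF791 on chromosome 19, 6 genes had 8 member probes, of which 4 rose in ATF3-WT and 5 in ATF3-KO, with 0 falls. The 4 in ATF3-WT were the 2 probes each of ZNF627 and ZNF823, so they stood for 2 genes. Of all DMSO-detected probes, 12.7% rose in ATF3-WT and 13.6% in ATF3-KO. In the run from ZNF329 to ZNF8 on chromosome 19, ZNF544 fell 3.35-fold while ZNF329 rose 2.52-fold in ATF3-WT. In the run from ZNF786 to ZNF746 on chromosome 7, which holds ZNF425, the changes in ATF3-WT ran from -0.73 to 2.61 over 8 probes, with a median of -0.15, 1 rise and 1 fall. The 87 member probes within such runs had a median of 0.26 in ATF3-WT and 0.31 in ATF3-KO, and the 151 outside had 0.05 and 0.14.

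The co-repressor and heterochromatin genes that KRAB proteins act through fell where they passed the test without the block, and some rose past it with the block. TRIM28 went from 9.28, 8.63 and 8.57 to 9.81, 9.2 and 9.05 in ATF3-WT, a change of 0.53 that did not pass the test (limma adjusted p = 0.162) and passed it with the replicate block (adjusted p = 0.00391), in ATF3-KO as well (0.53, adjusted p = 0.162 and 0.00379). Of 25 probes for 19 of the 23 listed co-repressor and heterochromatin genes, 0 rose and 7 fell (28%) in ATF3-WT. In ATF3-KO 0 rose and 8 fell (32%). Of all probes, 12.3% rose and 17.9% fell in ATF3-WT and 13.1% and 17.2% in ATF3-KO. The falls in ATF3-WT came from both probes of UHRF1 and PPHLN1 and from DNMT1, MPHOSPH8 and SETDB1. These genes span 38.5 to 122 kb. The first CHD4 probe (37.3 kb) was added in ATF3-KO. Of other DMSO-detected probes over 40 kb, 36.9% fell in ATF3-WT and 36.4% in ATF3-KO. From 20 to 40 kb the shares were 18.1% and 15.9%. Whether the list differs from genes of like span was not tested. SETDB1, the H3K9 methyltransferase that TRIM28 recruits, fell 2.13-fold in ATF3-WT and 2.36-fold in ATF3-KO (adjusted p = 0.000762 and 0.000326). UHRF1, which directs DNMT1 to newly replicated DNA, fell 2.19-fold and 3.17-fold on its first probe, and DNMT1 fell 1.4-fold and 1.65-fold. MPHOSPH8 and PPHLN1, subunits of the HUSH silencing complex, fell by 2.13-fold and, on the first PPHLN1 probe, 1.54-fold in ATF3-WT. TASOR, another subunit on the list, passed in neither genotype (0.17 in ATF3-WT and -0.09 in ATF3-KO, limma adjusted p = 0.554 and 0.762). At most 2 of the 3 arrays of any group detected TASOR. With the replicate block, DAXX (0.54, limma adjusted p = 0.0205), SUV39H1 (0.57, 0.0113) and 1 SUMO2 probe (0.44, 0.0367) also rose in ATF3-KO. Falls gained with the block were those of HDAC2 in both genotypes, 1 RESF1 probe in ATF3-WT and CBX5 in ATF3-KO. Centred on the median of all probes, the list had 0 rises in either genotype, with 12 falls (48%) in ATF3-WT and 10 (40%) in ATF3-KO. Of all probes, 2.4% then rose and 28.4% fell in ATF3-WT, and 3.67% and 22.4% in ATF3-KO. Centred on the probes detected on all 12 arrays, the list had 1 rise (4%) and 5 falls (20%) in ATF3-WT, beside 25% and 13.7% of all probes. In ATF3-KO it had 3 rises and 3 falls (12% each), beside 20.2% and 14.3%.

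Zinc finger genes under other names and other transcription factors served for comparison, each list taken over its probes detected on all 6 DMSO arrays. In the C2H2 families ZBTB, ZSCAN, ZKSCAN and ZFP, 9 of 43 probes rose (20.9%) and 7 fell (16.3%) in ATF3-WT, and 10 rose (23.3%) and 12 fell (27.9%) in ATF3-KO. The share that rose in ATF3-WT was thus above the 16.8% of the members. In zinc-binding families of other folds (ZC3H, ZCCHC, ZDHHC, ZFYVE, ZMYM and ZMYND), 4 of 52 rose and 21 fell in ATF3-WT, and 6 rose and 23 fell in ATF3-KO. Among other transcription factor families (such as E2F, FOX, SOX and STAT), 4 of 58 rose and 15 fell in ATF3-WT, and 7 rose and 17 fell in ATF3-KO. The 84 ZNF probes that were tested but not detected on all 6 DMSO arrays had 18 rises and 2 falls in ATF3-WT and 22 and 1 in ATF3-KO, a split that is only a description, since these probes were chosen for low DMSO detection.

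**Figure D4:**
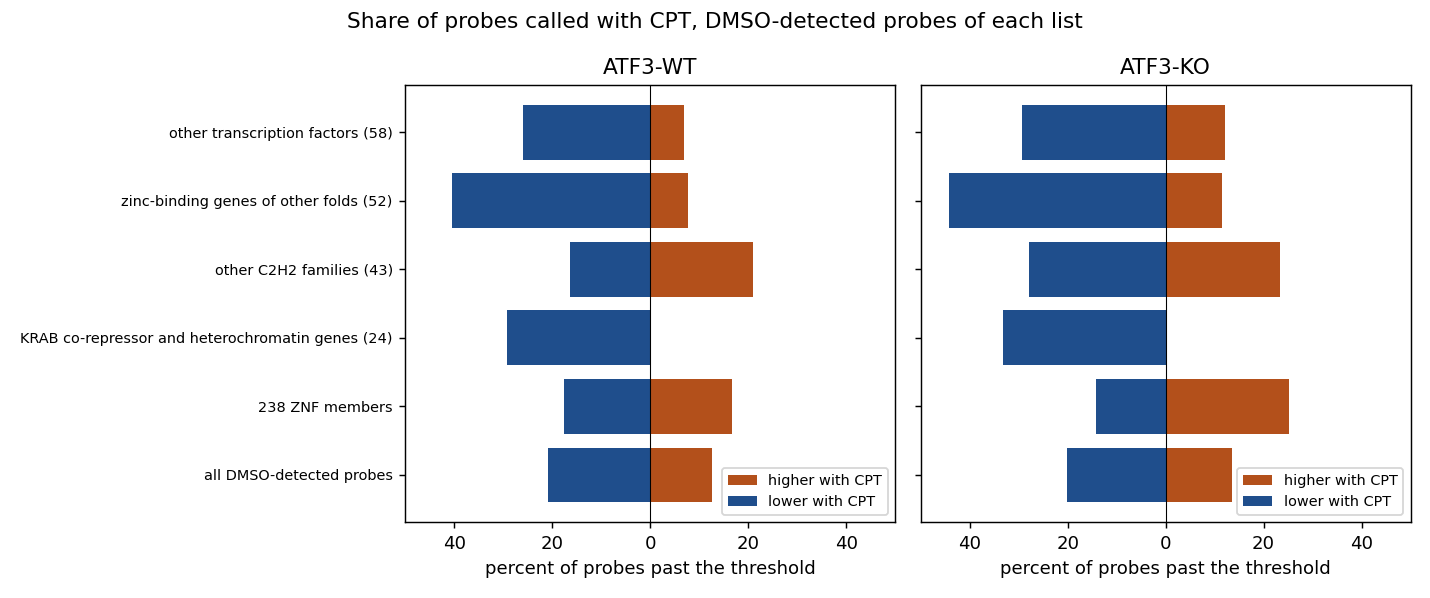
Percent of probes past an adjusted p of 0.05 that were higher (right of 0) or lower (left of 0) with CPT in ATF3-WT and ATF3-KO, for probes detected on all 6 DMSO arrays in each list, with the number of probes in brackets. In ATF3-KO the ZNF members had 25.2% higher and 14.3% lower, against 13.6% and 20.2% of all DMSO-detected probes, and the co-repressor list had 0 higher.

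No member was called different between ATF3-KO and ATF3-WT. Under DMSO, 0 of 238 members passed the test in limma, where 0.845% of all probes and 0.772% of the DMSO-detected probes did, and 11 (4.62%) had an unadjusted p under 0.05, which 9.41% of the DMSO-detected probes had. The median difference was 0.03 (0.04, 0.06 and -0.01 in the 3 replicates). With the replicate block 6 members passed, 3 higher in ATF3-KO (ZNF302, ZNF395 and ZNF467) and 3 lower (ZNF296, ZNF485 and ZNF695), beside 2.14% and 1.81% of the DMSO-detected probes. ZNF296 was at 9.09, 9.4 and 9.3 in ATF3-WT and at 8.16, 8.74 and 8.45 in ATF3-KO, with no overlap (1.76-fold lower, adjusted p = 0.129, and 0.0218 with the block). ZNF695 was at 5.93, 5.92 and 5.8 in ATF3-WT and 5.08, 5.33 and 5.16 in ATF3-KO on its first probe (1.62-fold lower, adjusted p = 0.0915, and 0.0232 with the block), and its second probe differed by -0.05. ZNF286A, at 6.83, 6.88 and 6.88 in ATF3-WT and 6.11, 6.34 and 6.25 in ATF3-KO, had an adjusted p of 0.236 (0.0636 with the block).

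Under CPT, none of the arrays compared had been used to choose the members. The 238 members were shifted slightly upward in ATF3-KO. The median ATF3-KO minus ATF3-WT difference was 0.14 (0.11, 0.11 and 0.15 in the 3 replicates), and 163 members (68.5%) were above 0, against a median of 0.01 and 52.2% over all probes. The median was 0.15 when arrays were centred on the median of all probes, and 0.12 when centred on the probes detected on all 12 arrays, where the median of all probes was 0.02 and -0.01. It was 0.09 without WT CPT replicate 3 or KO CPT replicate 3, and 0.06 without background correction, where all probes had 0.01. Since members share arrays and, in part, sequence, they are not independent measurements, and no p-value is given for the median.

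The medians of member classes by level, span and chromosome were all above 0, but not in every replicate. Members with a mean DMSO level under 6 on the log2 scale, from 6 to 7, and over 7 had medians of 0.14, 0.14 and 0.17, where other DMSO-detected probes of the same classes had 0.01, 0.01 and 0.02. By span, from the shortest to the longest class, member medians were 0.11, 0.13, 0.19 and 0.15, and those of the other probes were -0.03, 0, 0.03 and 0.04. In the shortest class the replicates gave -0.05, -0.03 and 0.30, and in the longest 0.25, 0.20 and -0.05. The 25 members under 10 kb outside chromosome 19 had a median of 0.02. Members on chromosome 19 had a median of 0.17 and those on other chromosomes 0.11. Over probes detected on all 6 DMSO arrays, the median was 0.06 for the other C2H2 families, 0.10 for the other transcription factors and 0 for zinc-binding genes of other folds. It was 0.07 for the ZNF probes outside the rule. The difference between the members and these lists was not tested.

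**Figure D5:**
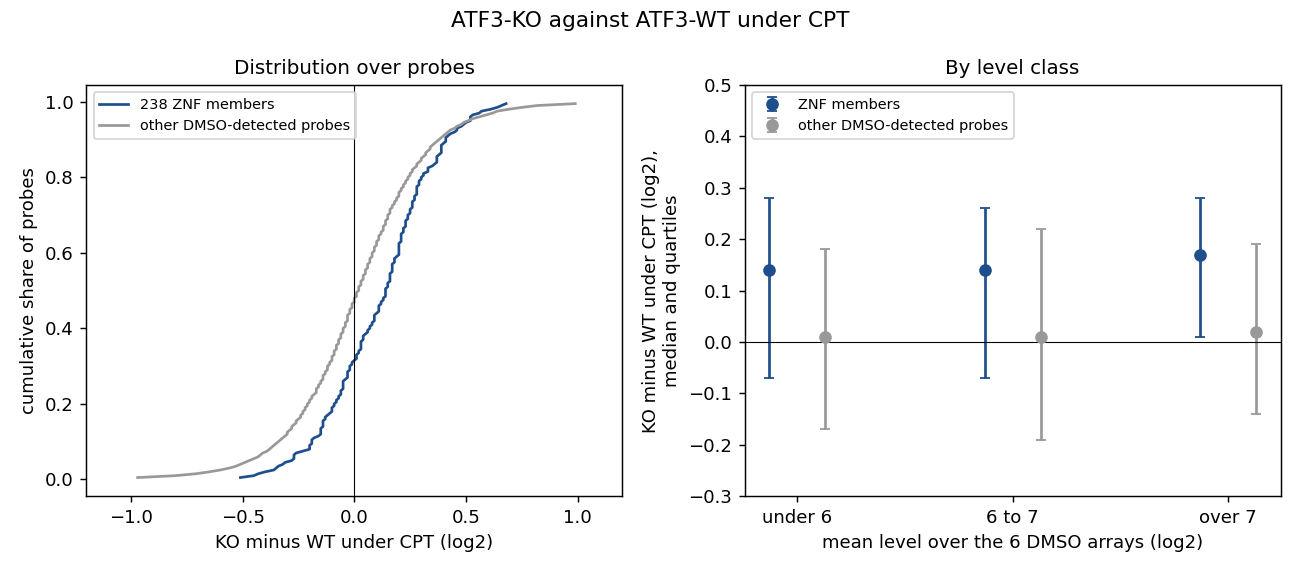
ATF3-KO minus ATF3-WT under CPT (log2). The left panel gives the cumulative share of probes at or below each difference for the 238 ZNF members (blue) and other DMSO-detected probes (grey), and the right panel the median with quartiles by mean DMSO level, where members have 0.14, 0.14 and 0.17 and other probes 0.01, 0.01 and 0.02.

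No single member passed the test under CPT (0 of 238 in limma, where 0.648% of all probes and 0.399% of the DMSO-detected probes did). An unadjusted p under 0.05 was found for 24 members (10.1%), close to the 9.69% of the DMSO-detected probes in either direction. Of the 24, 20 were higher in ATF3-KO, and the split by direction is not given for the other probes at this cut. The 3 arrays of each group did not overlap for 23 members that were higher in ATF3-KO and 3 that were lower, which was 9.66% and 1.26% of members, beside 7.08% and 6.06% of DMSO-detected probes and 6.92% and 6.1% of all probes. The 3 lower members were ZNF485, ZNF695 and ZNF789. With the replicate block 3 members passed, ZNF343 and ZNF395 higher in ATF3-KO and ZNF485 lower, beside 2% and 1.63% of DMSO-detected probes. These 3 are named because they passed, after their values were seen.

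ZNF343 had the smallest p of the members under CPT. Since no ATF3-WT CPT array detected it, only a bound can be given for the levels above, at least 1.08-fold higher in ATF3-KO (limma adjusted p = 0.128, and 0.0336 with the block). ZNF395, which is induced by hypoxia, was at 7.75, 7.59 and 7.43 in ATF3-WT and 8.36, 8.08 and 8.19 in ATF3-KO under CPT (0.62, adjusted p = 0.293, and 0.0428 with the block), and it was higher by 0.67 under DMSO as well. ZNF485 was at 6.18, 6.1 and 6.69 in ATF3-WT and 5.7, 5.4 and 5.9 in ATF3-KO under CPT (-0.66, adjusted p = 0.241, and 0.0268 with the block), and the difference under DMSO was -0.59.

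ZNF503 (NOLZ1), in the mouse a repressor in the developing striatum, had the largest difference of any member. It was at 8.44, 8.37 and 8.59 in ATF3-WT and 9.97, 9.4 and 9.41 in ATF3-KO under CPT (2.19-fold higher, limma adjusted p = 0.184, and 0.0518 with the block). Under DMSO it was at 8.01, 8.29 and 9.53 in ATF3-WT and 9.35, 9.28 and 9.79 in ATF3-KO, where the third ATF3-WT array overlapped with the ATF3-KO arrays. ZNF250 was at 5.77, 5.6 and 5.58 in ATF3-WT and 6.37, 6.27 and 6 in ATF3-KO under CPT (1.48-fold higher, adjusted p = 0.219).

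The response to CPT did not differ between the genotypes for any member past the threshold. In the fit with replicates as a block, 0 of 238 members and 0% of all probes passed an adjusted p of 0.05, and the same counts were 0 without the block. An unadjusted p under 0.05 was found for 12 members (5.04%), 9 with a higher change in ATF3-KO, beside 4.24% of the DMSO-detected probes in either direction. ZNF343 had the smallest p. It was at least 2.74-fold lower with CPT in ATF3-WT, where no CPT array detected it, and 2.09-fold lower in ATF3-KO, so the size of the difference is not measured (limma adjusted p = 0.444). ZNF165, a SCAN protein first known from testis and tumours, changed by -0.97 in ATF3-WT and -0.06 in ATF3-KO (difference 0.91 ± 0.34, adjusted p = 0.911). ZNF296 changed by 0.68 and 1.48, ZNF286A by -0.13 and 0.67, ZNF579 by 0.06 and 0.70, and ZNF18 by 0.78 and 1.24.

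In the other direction, ZNF248 was detected on no CPT array of either genotype, so its changes are only bounds. It was at least 1.39-fold lower with CPT in ATF3-KO (limma adjusted p = 0.000581). In ATF3-WT the bound was 1.01-fold, and the change did not pass the test (adjusted p = 0.182). The difference between genotypes had an adjusted p of 0.707. ZNF789 changed by 1.04 in ATF3-WT and 0.54 in ATF3-KO, ZNF512 by -0.17 and -0.72, ZNF33B by -0.84 and -1.31 on 1 of its probes, ZNF692 by 0.39 and 0.05, and ZNF133 by 0.85 and 0.32. With the replicate block the CPT changes of ZNF33B and ZNF692 in ATF3-WT (limma adjusted p = 0.0526 and 0.102, and 0.00105 and 0.0236 with the block) and of ZNF512 in ATF3-KO (0.055, and 0.00376 with the block) passed the test. All of these were chosen for the smallest p in this comparison, and none of the differences between genotypes passed the test.

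ATF3 binds the cAMP response element (CRE) and related AP-1 sites, so the promoters of the members were searched for these letters. A RefSeq promoter (GRCh38.p14), from 250 bases before to 50 after the gene's start, was matched by symbol for 174 of the 204 member genes. The CRE letters TGACGTCA, which read the same on both strands, were in 9 of the 174 (5.17%), in 1.98% of 27305 promoters of all genes and in 3.61% of 6931 promoters of other genes detected on all 6 DMSO arrays. The AP-1 letters TGACTCA on either strand were in 5 (2.87%), against 4.92% and 2.76%. The 11 probes of the 9 genes with CRE letters had a median ATF3-KO minus ATF3-WT difference under CPT of -0.01, with 5 above 0, and the 189 other matched probes had 0.15, with 134 above 0. A match is a description of the sequence and shows no binding.

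Among the letters searched, those of ETS factors set the family's promoters apart most in percentage points, and the TATA letters did so by ratio. CCGGAAG on either strand was in 71 of 174 member promoters (40.8%), against 10.7% of all promoters and 20.7% of those of other DMSO-detected genes. The TATA letters TATAAA were in 1 (0.575%), in ZNF124, against 12% and 5.22%. CCAAT was in 47.1%, against 35.7% and 37.3%, and the GC box GGGCGG in 66.7%, against 44.6% and 72.6%. YY1 letters (AAGATGGC) were in 5.75%, against 3.03% and 6.23%. Both risers and fallers held the ETS letters. The median change with CPT in ATF3-WT was 0.24 for the 77 probes with them and 0.13 for the 123 without, and the medians in ATF3-KO were 0.38 and 0.24.

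The 150 bases before the start are shown for 4 members with the CRE letters in that stretch and for 3 named members with the ETS letters there, 1 of which rose and 2 of which fell, each with those letters in capitals, read 5′ to 3′ on the gene's strand. ZNF121 lies on the minus strand at chr19:9584505-9584654, ZNF266 on the minus strand at chr19:9435574-9435723, ZNF330, a nucleolar protein gene, on the plus strand at chr4:141220745-141220894, and ZNF593, a gene of large ribosomal subunit assembly, on the plus strand at chr1:26169758-26169907. ZNF302 lies on the plus strand at chr19:34677528-34677677, ZNF215 on the plus strand at chr11:6926276-6926425, and ZNF343 on the minus strand at chr20:2524523-2524672. In ZNF302 the ETS letters stand on the opposite strand.
ZNF121: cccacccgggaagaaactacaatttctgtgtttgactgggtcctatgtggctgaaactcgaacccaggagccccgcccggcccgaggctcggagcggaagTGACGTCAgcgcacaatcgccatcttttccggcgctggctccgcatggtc
ZNF266: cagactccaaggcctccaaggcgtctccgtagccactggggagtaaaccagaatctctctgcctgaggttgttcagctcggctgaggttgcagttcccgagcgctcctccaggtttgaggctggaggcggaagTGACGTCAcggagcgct
ZNF330: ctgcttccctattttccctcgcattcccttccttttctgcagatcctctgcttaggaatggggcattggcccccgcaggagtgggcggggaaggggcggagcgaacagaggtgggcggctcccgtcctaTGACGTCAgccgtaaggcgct
ZNF593: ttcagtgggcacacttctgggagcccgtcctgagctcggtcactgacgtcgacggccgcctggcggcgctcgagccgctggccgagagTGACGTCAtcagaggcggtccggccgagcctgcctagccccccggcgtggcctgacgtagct
ZNF302: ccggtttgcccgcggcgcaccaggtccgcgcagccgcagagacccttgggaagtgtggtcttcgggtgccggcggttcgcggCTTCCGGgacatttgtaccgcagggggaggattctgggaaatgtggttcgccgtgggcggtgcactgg
ZNF215: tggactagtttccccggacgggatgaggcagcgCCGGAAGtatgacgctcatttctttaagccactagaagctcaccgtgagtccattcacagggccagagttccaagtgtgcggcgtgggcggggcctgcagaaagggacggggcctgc
ZNF343: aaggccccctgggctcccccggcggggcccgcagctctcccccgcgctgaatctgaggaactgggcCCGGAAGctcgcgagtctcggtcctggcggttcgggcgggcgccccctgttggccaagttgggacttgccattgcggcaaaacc

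Of the 4 genes with CRE letters shown, ZNF593 rose in both genotypes, by 0.53 in ATF3-WT and 0.75 in ATF3-KO on the log2 scale (limma adjusted p = 0.0155 and 0.00221). ZNF266 rose by 0.93 in ATF3-KO (adjusted p = 0.014) and had 0.69 in ATF3-WT, just short of the threshold (adjusted p = 0.0537, and 0.00761 with the block). ZNF121 had 0.36 and 0.38 and passed in neither, and of the ZNF330 probes 1 passed in ATF3-KO (0.63, adjusted p = 0.0324), and both passed in each genotype with the block. Their ATF3-KO minus ATF3-WT differences under CPT were -0.13 for ZNF593, 0.28 for ZNF266, 0.20 for ZNF121, and -0.03 and -0.18 for ZNF330, so they lay on both sides of 0. ZNF143, an activator of small nuclear RNA and many messenger RNA promoters whose own promoter also holds the CRE letters, changed by -0.79 in ATF3-WT and -0.72 in ATF3-KO (adjusted p = 0.15 and 0.193) and differed by -0.09 between genotypes under CPT. These genes are named for their promoter letters and not for their values.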

How the data were processed

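The authors deposited, for each of the 12 arrays, GenomeStudio bead intensity values that were not normalized, each with a detection p-value from the array's negative controls, and a second table of intensities that they had background-subtracted and quantile normalized, on a linear scale and with replicate 1 apart from replicates 2 and 3. For the alternative these were taken to log2 after adding 16, with values below 0 set to 0. The non-normalized intensities were corrected with limma's nec (offset 16), quantile normalized over the 12 arrays and taken to log2. A probe was kept if it named 1 gene and had a detection p-value under 0.01 on at least 3 arrays, which left 13735 probes. Probes were named through the platform annotation, with symbols updated to RefSeq by gene ID (30059 probes matched and 39 not). Another 8 probes named several genes, and 17194 named none. One model of the 4 group means was fitted with lmFit and eBayes (limma 3.58.1, R 4.3.3), and p-values were adjusted by Benjamini-Hochberg over all kept probes. For the difference in response the replicate number was a block. The fit was tested on simulated data.

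Arrays with the same replicate number deviated together: correlations of deviations from the group means ran from 0.26 to 0.68 over 18 pairs of arrays, and for 12 of 12 arrays the closest array of another group had the same number. The number therefore pairs the samples, and blocked values are given beside named values whose call they change. The number of arrays limits the precision.

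Named members were up to 8 members with the greatest called changes in each direction and genotype, if the groups did not overlap, the smallest p-values where none passed, the probes nearest the detection threshold, and genes whose probes differed by more than 0.5. The members, gene lists and rules were chosen with earlier results of these data known. KRAB boxes and finger numbers were not counted, as no protein sequences were used. Alternatives were other background, scaling and filter choices, the authors' normalized values, the block, other member rules and each array left out.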

Additional observations from a re-analysis of the deposited data

How the results depend on the processing

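Most results kept their direction and their side of the threshold, and none of the named values changed sign after having passed the test. The scaling of the arrays could turn the sign of the members' median change with CPT. The replicate block changed the total number of calls with CPT more than the scaling did, but the scaling changed their split by direction. From 40 rises and 42 falls in ATF3-WT, centring on the median of all probes gave 10 and 65, and the block gave 75 and 52. In ATF3-KO, 60 and 34 became 21 and 49 with that centring, and 88 and 44 with the block. The shares of other probes are given above. Centred on the median of all probes, the members' median change with CPT was -0.26 in ATF3-WT and -0.05 in ATF3-KO. The ATF3-KO minus ATF3-WT median under DMSO was then -0.06, and 2 members passed there (ZNF296 and ZNF695). Both were lower in ATF3-KO, which was 0.84% of the members, beside 0.436% lower and 0.272% higher of the DMSO-detected probes. Centred on the probes detected on all 12 arrays, an alternative chosen after seeing the data, the medians were 0.33 with CPT in ATF3-KO, 0.08 under DMSO between genotypes and 0.12 under CPT. Without background correction the median was 0.13 with CPT in ATF3-KO and 0.06 for ATF3-KO minus ATF3-WT under CPT. With the replicate block, 127 members (53.4%) were called with CPT in ATF3-WT, close to 52.3% of the DMSO-detected probes. Between genotypes it called 6 (2.52%) under DMSO and 3 (1.26%) under CPT, beside 3.95% and 3.62% of the DMSO-detected probes. The block ended no call among the named members in the 4 comparisons fitted without it in the main analysis. On the authors' normalized values, with replicate 1 set apart, 2 members were called between genotypes under DMSO (ZNF296 and ZNF695) and 1 under CPT (ZNF343). With replicates 2 and 3 alone the median with CPT in ATF3-KO was 0.19.

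The choice of members shaped the CPT medians. With probes detected on all 12 arrays, they were 0.36 in ATF3-WT and 0.45 in ATF3-KO, and with members chosen by detection on all 6 CPT arrays they were 0.39 and 0.48, since probes lost under CPT then drop out by construction. Members chosen by the CPT arrays, or by detection on at least 3 arrays, gave 1 call each between genotypes under DMSO. The ATF3-KO minus ATF3-WT median under CPT stayed between 0.13 and 0.16 under these member rules.

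Leaving out 1 array at a time, the number of members called with CPT was between 54 and 95 in ATF3-WT and between 68 and 103 in ATF3-KO, and 0 or 1 between genotypes under DMSO or CPT (ZNF503, without WT DMSO replicate 3). Where an arm kept 2 arrays the spread was pooled over the groups. The medians ranged from 0.03 to 0.20 with CPT in ATF3-WT, from 0.14 to 0.31 in ATF3-KO, from -0.07 to 0.11 between genotypes under DMSO and from 0.09 to 0.15 under CPT. The difference in response gave 0 calls each time. With 3 arrays a group and signals near background for many members, small changes could not be resolved.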
